A study of Drosophila melanogaster with 9 samples.

Results

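A group of 20 genes, of 13937 counted, had transcripts at least 1.4-fold more abundant after 1 h with insulin-like peptide in *Drosophila* S2 cells, a cultured line with features of hemocytes, the blood cells of the fly. Cells were serum-depleted for 16 h and then given 100 nM DILP2, 100 nM DILP5 or solvent alone (vehicle) for 1 h. DILP2 was a synthetic peptide and DILP5 a recombinant one, both ligands of the fly insulin receptor. Poly(A) RNA was sequenced from 3 libraries per treatment, called replicates A, B and C after their labels, and reads on genes numbered from 28365854 to 38557706 per library. The labels do not say whether the 3 libraries of a treatment came from separate cultures, so p-values measure only the spread between these libraries, which may be technical. All 9 libraries came from a single cell line, and all were from serum-depleted cells. Levels are given as CPM, the reads on a gene scaled to a common total of reads on genes.

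Insulin signalling in the fly runs from the receptor InR through the adaptor chico to class I PI3-kinase and the kinase Akt1. Akt1 keeps the transcription factor foxo out of the nucleus and, through TOR, favours the building of ribosomes. S2 cells carry this pathway and respond to added insulin, which has made them a common system for its study.

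The genes were chosen from these same libraries. Of 13937 genes counted, 7134 had a mean count of at least 100, and 548 of those (7.68%) had all 6 DILP libraries above all 3 vehicle libraries. The ratio of the mean DILP level to the mean vehicle level reached 1.4 in 37 of the 548. The selection left out 17 of the 37 by name, namely 8 heat shock protein genes and 9 others, and 20 remained. The difference between DILP and vehicle is thus a description of how they were picked, with no test. The genes nearest above the limit were CG10341 (ratio 1.403), nop5 (1.407) and CG7560 (1.418), and those nearest below it were l(3)72Dn (1.399), Spargel (1.394) and CG11660 (1.378). ImpL3, the lactate dehydrogenase gene, reached a ratio of 1.56 but overlapped, because vehicle replicate A (136 CPM) exceeded DILP2 replicate C (99.5 CPM) and DILP5 replicate C (94.7 CPM). CG15695 reached 1.42 and overlapped as well. Without vehicle replicate A the same steps found 35 genes, 16 of the 20 among them, and without vehicle replicate B they found 33, with all 20 among them.

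**Figure D1:**
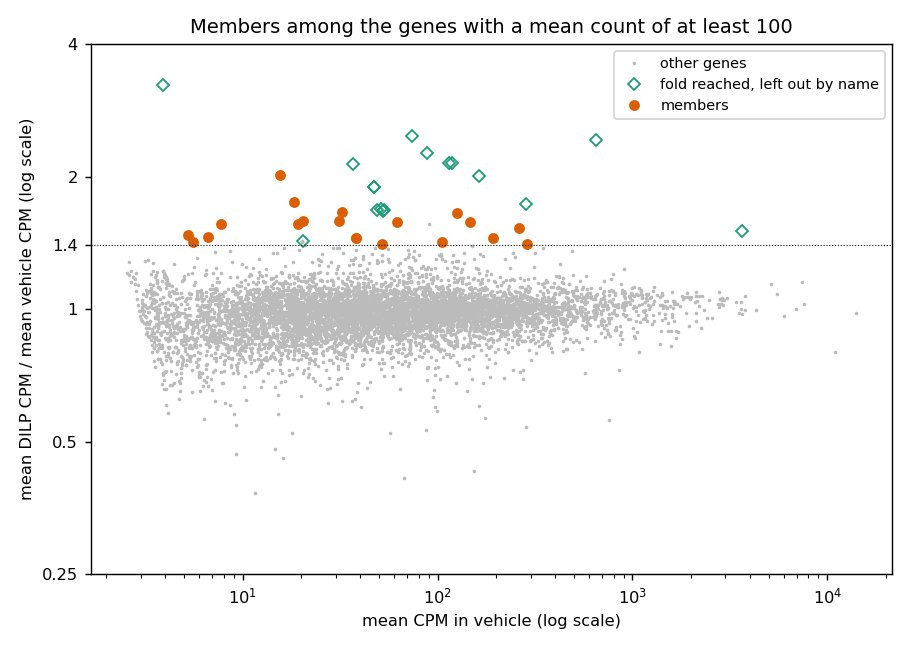
Mean level in vehicle (x axis, CPM, log scale) against the mean DILP level divided by the mean vehicle level (y axis, log scale) for each gene with a mean count of at least 100. Filled orange points are the 20 genes, which lie between 1.403 and 2.01 on the y axis, open diamonds are the 17 left out by name, and grey points, most of them near 1, are the other genes.

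The ratio of the mean DILP level to the mean vehicle level was 2.01 in Pepck, the highest of the 20, and 1.403 in CG10341, the lowest, with a median of 1.54. Over the 7134 genes with the count minimum the median was 0.981. Fitted log2 fold changes over vehicle had a median of 0.66 with DILP5 and 0.64 with DILP2, against -0.0019 and -0.0022 over the 8981 genes tested. Both comparisons use the same vehicle libraries. The smallest gap between a DILP library and a vehicle library was in CG7560, whose lowest DILP library was 1.03 times its highest vehicle library. In Pepck that value was 1.70. In bulk RNA, more transcript per cell and more cells with the transcript cannot be told apart.

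The genes with a known role are taken by class, beginning with a secreted ligand. The FGF ligand branchless, bnl (FBgn0014135, chromosome arm 3R), which guides the growth of tracheal branches in the fly, was at 31.6, 30.9 and 33.1 CPM with DILP2 in replicates A, B and C. With DILP5 it was at 33.9, 31.5 and 31.2 CPM, and with vehicle at 20.1, 17.9 and 16.7 CPM. The 6 DILP libraries lay within a narrow band, and replicate A was the highest of the vehicle libraries. The ratio over vehicle was 1.75 with DILP2 and 1.76 with DILP5.

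Pi3K21B (FBgn0020622, 2L), the regulatory subunit of class I PI3-kinase that ties the enzyme to activated receptors, was the member nearest to the insulin receptor. Its levels were 279, 282 and 279 CPM with DILP2, 276, 280 and 285 CPM with DILP5, and 190, 197 and 193 CPM with vehicle. The coefficient of variation was 0.620% with DILP2, 1.66% with DILP5 and 1.61% with vehicle, the lowest of the 20 genes with DILP2 and with vehicle, and the ratio over vehicle was 1.45 with each DILP.

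Inhibitors of other signalling pathways formed a further pair. Socs36E (FBgn0041184, 2L), a suppressor of cytokine signalling that damps the JAK/STAT pathway, was at 247, 236 and 197 CPM with DILP2, 255, 242 and 204 CPM with DILP5, and 164, 140 and 134 CPM with vehicle. Replicate C was the lowest library of every treatment, and DILP2 replicate C was 1.197 times vehicle replicate A. Within each letter the ratio over vehicle was from 1.47 to 1.73. The gene pirk (FBgn0034647, 2R) encodes an inhibitor of the Imd immune pathway. Its levels were 52.8, 52.8 and 54.0 CPM with DILP2, 58.8, 55.9 and 49.5 CPM with DILP5, and 31.8, 34.3 and 31.3 CPM with vehicle, so that the DILP2 libraries were closely grouped and those of DILP5 spread to both sides of them.

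Several members act in making ribosomes. U3-55K (FBgn0053505, 2R), a protein of the U3 small nucleolar particle that cleaves the ribosomal RNA precursor, was at 53.8, 48.7 and 50.4 CPM with DILP2, 46.1, 50.9 and 48.4 CPM with DILP5, and 29.6, 34.5 and 30.0 CPM with vehicle. Vehicle replicate B stood above the other vehicle libraries and still below every DILP library. The box C/D particle protein nop5 (FBgn0026196, 2L) was at 413, 396 and 409 CPM with DILP2, 399, 413 and 406 CPM with DILP5, and 276, 301 and 289 CPM with vehicle. Its means with DILP2 and DILP5 were 406 ± 8.83 and 406 ± 6.81 CPM (SD, n = 3 each), against 289 ± 12.4 CPM with vehicle. Per kb of exon, nop5 had the highest level of the 20 genes in every treatment (224 CPM per kb with each DILP and 159 with vehicle).

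CG10341 (FBgn0032701, 2L), the fly relative of yeast Naf1, which assembles H/ACA particles, was at 69.5, 75.4 and 70.3 CPM with DILP2, 77.5, 74.1 and 71.1 CPM with DILP5, and 49.98, 53.4 and 52.6 CPM with vehicle. It was nearest to the fold limit, and its ratio with DILP2 alone was 1.38. RpI12 (FBgn0038903, 3R), a subunit of RNA polymerase I, was at 9.40, 9.01 and 10.2 CPM with DILP2, 8.58, 11.6 and 9.31 CPM with DILP5, and 6.71, 7.37 and 5.81 CPM with vehicle. DILP5 replicate B was its highest library, and DILP5 replicate A, its lowest DILP library, was 1.16 times vehicle replicate B. The exons of RpI12 share 11 bp with CG6800 on the opposite strand, and those of CG10341 share 40 bp with CG10376. The handling of strand in the counts is not given in the sources used here.

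Other members encode metabolic enzymes. Pepck (FBgn0003067, 2R) encodes phosphoenolpyruvate carboxykinase, an enzyme of gluconeogenesis whose mammalian counterpart in liver is known as a gene that insulin represses. In these S2 cells it was the member with the largest ratio. It was at 32.8, 32.0 and 32.3 CPM with DILP2, 29.8, 30.4 and 30.3 CPM with DILP5, and 14.7, 14.4 and 17.5 CPM with vehicle. The ratio over vehicle was 2.08 with DILP2 and 1.94 with DILP5, and the lowest ratio within a letter was 1.73, in replicate C, where the vehicle library was highest. All 2486 bp of its exons lie within those annotated for CG45087 on the same strand, a gene that is not in the count table, so reads of the gene pair cannot be told apart.

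CG7560 (FBgn0036157, 3L), which encodes methylenetetrahydrofolate reductase of the folate cycle, was at 9.21, 8.48 and 6.35 CPM with DILP2, 8.11, 8.45 and 6.84 CPM with DILP5, and 5.46, 6.13 and 5.14 CPM with vehicle. Replicate C was the lowest of every treatment and came close to the vehicle libraries, and the ratio with DILP5 alone was 1.399. CG15766 (FBgn0029813, X), now named AgmNAT for agmatine N-acetyltransferase, had the fewest reads, with as few as 147 in a library. It was at 7.71, 6.98 and 7.45 CPM with DILP2, 7.48, 8.33 and 8.37 CPM with DILP5, and 4.18, 5.78 and 5.78 CPM with vehicle, where replicate A stood below the other 2 libraries. CG7460 (FBgn0036749, 3L), of the polyamine oxidase family, was at 29.8, 27.8 and 30.9 CPM with DILP2, 28.3, 30.2 and 33.4 CPM with DILP5, and 20.2, 16.8 and 20.8 CPM with vehicle. Replicate C was the highest library of every treatment in this gene.

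CG31743 (FBgn0032618, 2L), also called C4ST for chondroitin 4-sulfotransferase, and CG34313 (FBgn0085342, 2L) had the same count in each of the 9 libraries. They share all 2239 bp of their exons on the same strand, so the 20 genes hold 19 distinct sets of counts. Both were at 54.6, 54.2 and 59.4 CPM with DILP2, 53.4, 55.6 and 55.7 CPM with DILP5, and 36.3, 39.3 and 38.9 CPM with vehicle. DILP2 replicate C was the highest library and vehicle replicate A the lowest. Of the 7134 genes with the count minimum, 123 had counts equal to those of another gene.

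The Rab GTPase gene ltd (FBgn0002567, 2R), now named Rab32 and known for the making of pigment granules in the eye, was at 10.97, 11.4 and 13.3 CPM with DILP2, 11.7, 11.6 and 13.1 CPM with DILP5, and 7.99, 7.16 and 7.999 CPM with vehicle. Per kb it was the lowest of the 20, at 1.89 CPM per kb with vehicle. CG5958 (FBgn0031913, 2L), of the CRAL-TRIO lipid-binding family, was at 96.5, 93.5 and 102 CPM with DILP2, 93.6, 95.2 and 104 CPM with DILP5, and 58.7, 65.7 and 61.6 CPM with vehicle. Its ratio over vehicle was 1.57 with DILP2 and 1.58 with DILP5.

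A role is left unstated for the remaining members, 4 in number. CG32512 (FBgn0052512, X) was at 203, 211 and 203 CPM with DILP2, 207, 209 and 213 CPM with DILP5, and 133, 118 and 126 CPM with vehicle. CG5346 (FBgn0038981, 3R) was at 408, 405 and 378 CPM with DILP2, 424, 409 and 371 CPM with DILP5, and 270, 268 and 245 CPM with vehicle. In CG32512 all 6 DILP libraries were close to each other, whereas in CG5346 replicate C was the lowest of every treatment and the ratio within a letter stayed between 1.51 and 1.57. CG6231 (FBgn0038720, 3R) was at 33.4, 36.3 and 25.6 CPM with DILP2, 34.5, 33.8 and 29.6 CPM with DILP5, and 19.99, 24.5 and 16.6 CPM with vehicle. Its vehicle libraries spread more than those of any other member (coefficient of variation 19.5%), and DILP2 replicate C was 1.05 times vehicle replicate B. CG7530 (FBgn0038256, 3R) was at 129, 147 and 154 CPM with DILP2, 150, 147 and 168 CPM with DILP5, and 100, 106 and 110 CPM with vehicle. Its ratio with DILP2 alone, 1.36, was the lowest of any member with either DILP, and 17 of the 20 genes reached 1.4 with each DILP singly.

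**Figure D2:**
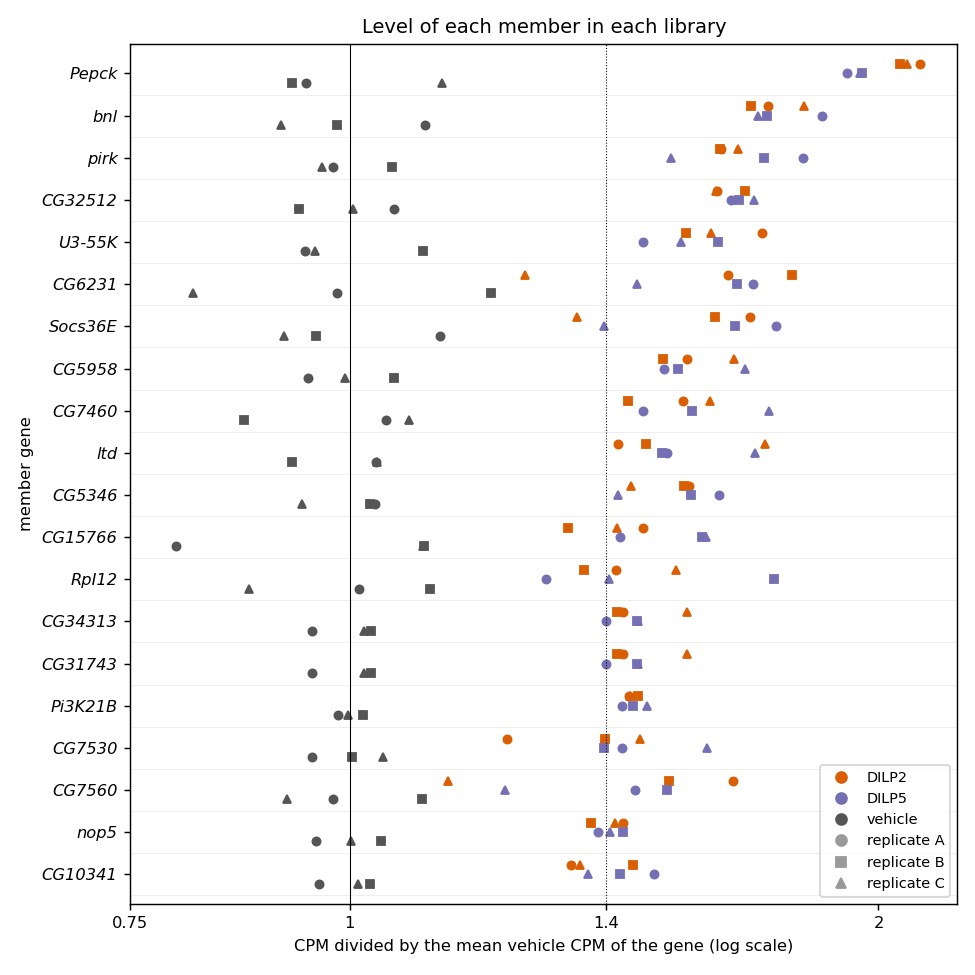
Level of each of the 20 genes in each library, divided by the mean of its vehicle libraries (x axis, log scale), with treatments by colour and replicates by shape. Pepck lies farthest right, every DILP point lies to the right of the vehicle points of its gene, and in CG7560 and CG6231 the replicate C points with DILP2 come nearest to vehicle.

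The 20 genes together, with the shared reads of CG31743 and CG34313 taken once, made up 2171, 2164 and 2115 CPM with DILP2, 2204, 2198 and 2139 CPM with DILP5, and 1440, 1456 and 1408 CPM with vehicle. Replicate C was the lowest of each treatment in this sum. Dividing each DILP library by the vehicle library of its letter gave 120 ratios over the 20 genes, from 1.21 to 2.24. The selection itself fixes that all 120 are above 1.

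The selection did not use gene structure or position. Exonic length had a median of 2120 bp in the 20 genes and 2121 bp in the other genes with the count minimum, and both had a median of 4 exon blocks. The span of the gene had a median of 4126 bp, against 2703 bp in the others. The median level with vehicle was 17.3 CPM per kb, against 21.9 in the others. Unlike structure and position, the vehicle level does enter the selection, as the lower term of its ratio. Of the 20 genes, 7 (35%) were on arm 2L, where 18.2% of the others were, and 2 of those 7 are the pair with shared reads. Arm 3R held 5, 2R held 4, and X and 3L held 2 each. Apart from that pair, no 2 members were adjacent genes. These comparisons are descriptions of lists and carry no test.

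DILP5 against DILP2 is a contrast that the selection did not use directly, since it took the 6 DILP libraries together. The selection still needed every library of each ligand above vehicle, so a gene with any DILP library at or below a vehicle library could not be a member. It set no fold for each ligand singly. Likeness of the ligands among the 20 is thus in part set by the selection. Within that limit, the contrast asks whether the ligands differ in how far they raise these genes. In edgeR's quasi-likelihood test none of the 20 passed an adjusted p of 0.05, as none of the 8981 genes did (0%), and the smallest adjusted p over all genes was 0.9998. At an unadjusted p under 0.05 there were 0 of the 20 and 208 of all genes (2.32%), and DESeq2 also called 0 genes. DILP5 was higher than DILP2 in 13 genes and lower in 7, with log2 fold changes from -0.10 to 0.12 and a median of 0.021. The 7 hold CG31743 and CG34313, which share the same reads.

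Intervals measure how far the ligands could differ, given the spread between these libraries and no replicate block. They are not adjusted over the 20 genes. The 95% interval of DILP5 over DILP2 lay within 1.2-fold either way in 15 of the 20 genes and within 1.5-fold in all 20. The 15 also hold the pair CG31743 and CG34313 with shared reads. Pi3K21B had the narrowest, from 0.947 to 1.06 times, around a log2 fold change of 0.0016 ± 0.036 (± SE). For nop5 the interval was from 0.937 to 1.07 times and for bnl from 0.909 to 1.12 times. The genes outside 1.2-fold were CG15766 (0.906 to 1.31 times), CG6231 (0.842 to 1.26 times), CG7560 (0.797 to 1.19 times), RpI12 (0.857 to 1.23 times) and CG7530 (0.962 to 1.21 times). With the replicate block the SE fell from 0.132 to 0.067 for CG6231 and from 0.076 to 0.042 for CG7530. Which genes lie outside 1.2-fold may thus depend on that choice.

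The smallest p among the 20 was that of CG7530, at a log2 fold change of 0.11 ± 0.076 for DILP5 over DILP2, although replicate B was at 147 CPM with either ligand. Pepck followed at -0.10 ± 0.073 (0.834 to 1.04 times). It was the only member whose DILP libraries did not overlap, all 3 with DILP5 (29.8 to 30.4 CPM) being below all 3 with DILP2 (32.0 to 32.8 CPM). Of the genes with the count minimum, 2.16% had that arrangement and 3.32% the opposite one. U3-55K was next at -0.075 ± 0.062, then CG10341 at 0.048 ± 0.046 and CG15766 at 0.12 ± 0.12. Each of these 5 had an adjusted p of 0.9998 over all genes in edgeR's test.

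**Figure D3:**
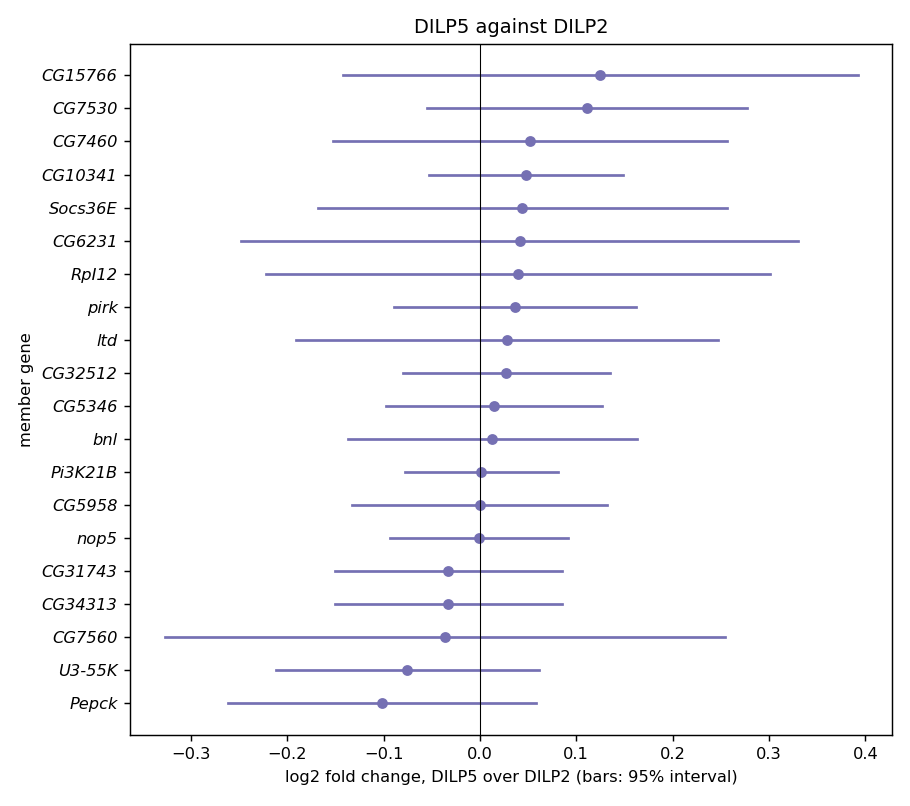
Log2 fold change of DILP5 over DILP2 in each of the 20 genes (points) with its 95% interval (bars) from edgeR's fit. All intervals include 0, the points lie between -0.10 and 0.12, and the bars are narrowest for Pi3K21B and nop5.

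Replicates that share a letter shared deviations in some members. Replicate C was the lowest library of all 3 treatments in CG6231, Socs36E, CG5346 and CG7560, 4 of 20 genes (20%), where 20.1% of the genes with the count minimum showed the same. It was the highest of all 3 in CG7460, ltd and CG7530 (15%), against 11.3% of genes. In Pi3K21B replicate A was the lowest of all 3, with DILP2 only by 278.9 against 279.1 CPM in replicate C. In Socs36E and CG5346 replicate A was the highest of all 3. The share of all genes with these patterns of replicate A was not taken. What the letters stand for is not given in the sources used here.

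**Figure D4:**
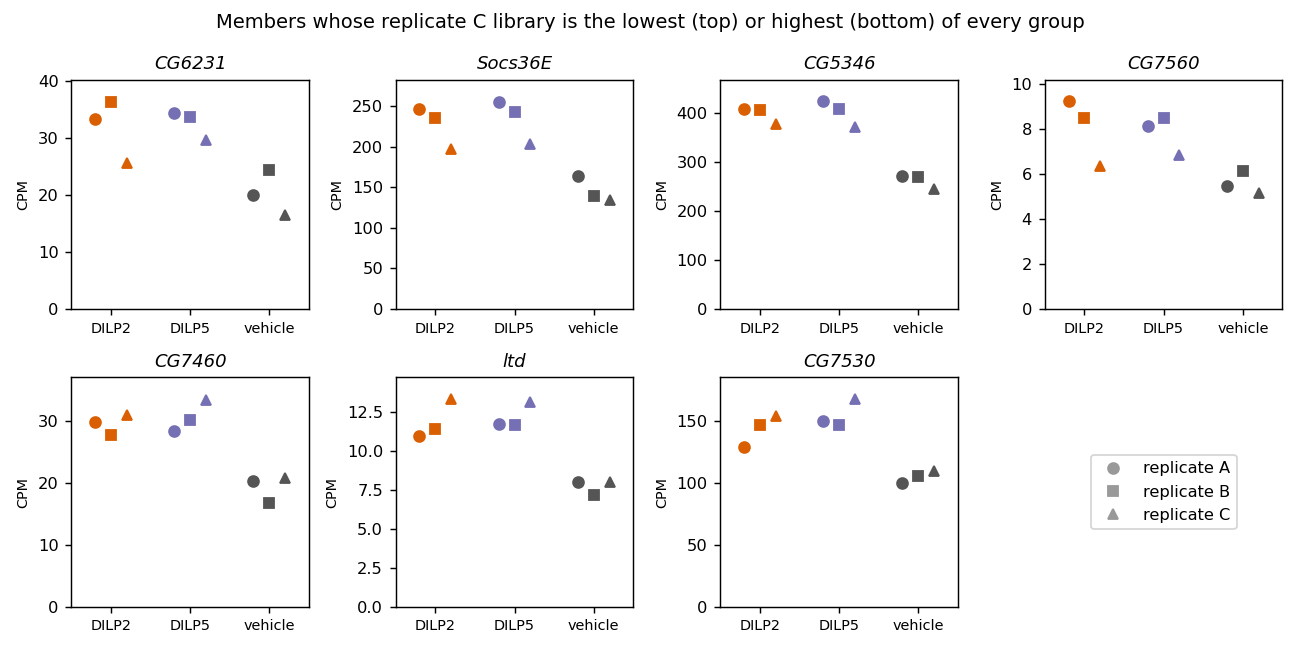
Level (y axis, CPM, from 0) in each library of the 4 genes whose replicate C (triangle) is the lowest of every treatment and the 3 genes whose replicate C is the highest of every treatment. In Socs36E the replicate C libraries are at 197, 204 and 134 CPM with DILP2, DILP5 and vehicle, and in CG7530 at 154, 168 and 110 CPM.

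Members were then set beside lists of related genes. On a list drawn up for Myc and ribosome production, 19 genes were tested, and 10 rose with DILP2 and 10 with DILP5. Over all tested genes, 5.33% were higher with DILP2 and 6.28% with DILP5. The other 9 of the list did not pass with either. They include Rrp1, CG6197 and Mitf, which are not established ribosome production genes. The median log2 fold change over the whole list was 0.26 with DILP2 and 0.27 with DILP5. The member nop5 is among the 10 and was picked for its rise, so its pass carries no test. Besides the member nop5, Nop60B, the pseudouridine synthase of H/ACA particles, rose by 0.46 ± 0.036 with DILP2 and 0.46 ± 0.036 with DILP5 (log2 ± SE, adjusted p = 1.56e-05 and 1.59e-05). Fib, the methyltransferase of box C/D particles, rose by 0.36 ± 0.062 with DILP2 and 0.50 ± 0.062 with DILP5 (adjusted p = 0.00448 and 0.000405). Nnp-1 rose by 0.38 ± 0.046 and 0.40 ± 0.046, and Nop56, the partner of nop5 in box C/D particles, by 0.28 ± 0.039 and 0.27 ± 0.039. The gene of Myc itself, dm, was at 0.29 ± 0.10 with DILP2 and 0.18 ± 0.10 with DILP5, and did not pass (adjusted p = 0.0965 and 0.290). With DILP2 it passed in 4 of 16 alternatives, namely DESeq2, the replicate block, and without DILP2 replicate B or DILP5 replicate C, and with DILP5 in 1, the replicate block (lowest adjusted p 0.00074 and 0.0128).

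**Figure D5:**
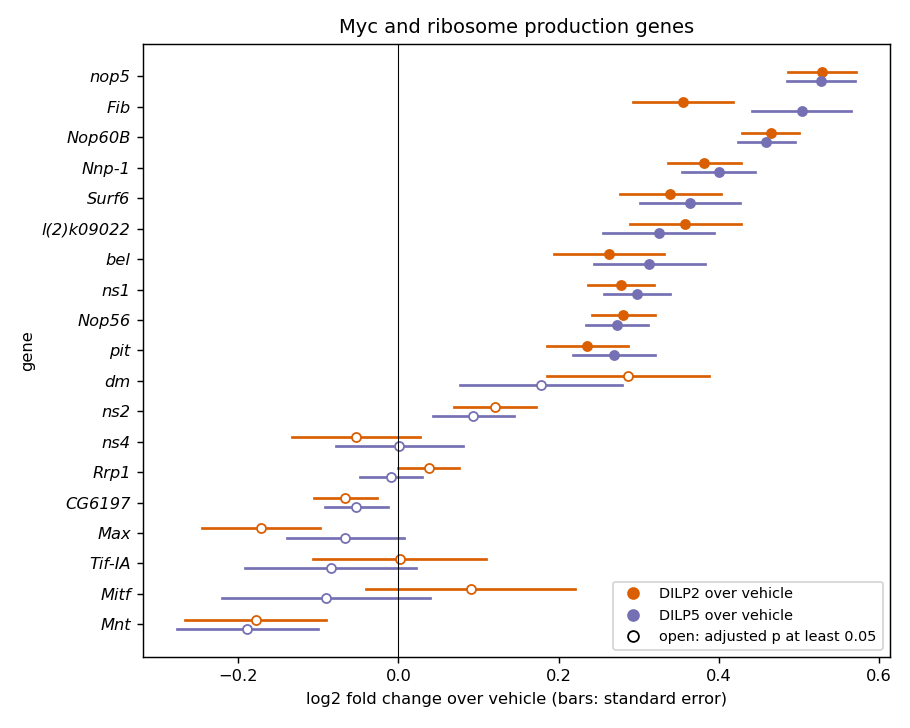
Log2 fold change over vehicle (x axis, bars are 1 SE) of the 19 tested genes on the Myc and ribosome production list. DILP2 is in orange and DILP5 in violet. Rrp1, CG6197 and Mitf are on the list but are not established ribosome production genes. Filled points passed an adjusted p of 0.05: 10 genes with each DILP, all to the right of 0. The highest, nop5 at 0.53, is a member picked for its rise.

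In the insulin and TOR pathway, Pi3K21B was in the minority. As a member it was picked for its rise, so its pass carries no test. Of 22 genes tested, 2 rose and 5 fell with DILP2, and 2 rose and 7 fell with DILP5, where 5.59% of all tested genes were lower with DILP2 and 6.78% with DILP5. The other gene that rose was Spargel, the fly PGC-1 coactivator, by 0.47 ± 0.039 with DILP2 and 0.56 ± 0.039 with DILP5 (adjusted p = 2.36e-05 and 6.09e-06). InR fell by 0.46 ± 0.056 with DILP2 and by 0.53 ± 0.056 with DILP5 (adjusted p = 0.000413 and 0.000136). Pk61C, the PDK1 kinase that activates Akt1, fell by 0.51 ± 0.045 and by 0.46 ± 0.045 (adjusted p = 4.07e-05 and 7.34e-05). Thor, the translation repressor 4E-BP, fell by 0.76 ± 0.20 and by 0.72 ± 0.19 (adjusted p = 0.0299 and 0.0308), and without vehicle replicate A its adjusted p was 0.113 and 0.120. Its call was also lost without vehicle replicate C with each DILP, without any DILP2 library with DILP2, and without DILP5 replicate B with DILP5. The catalytic partner of Pi3K21B, Pi3K92E, was at -0.11 ± 0.038 with DILP2 (adjusted p = 0.103) and fell by 0.15 ± 0.038 with DILP5 (adjusted p = 0.0271). The call with DILP5 was kept in 9 of 16 alternatives. Those that lost it include leaving out any single DILP5 or vehicle library (adjusted p 0.0589 to 0.0889). The number that fell with DILP2 was 2 without vehicle replicate A, vehicle replicate C or DILP2 replicate B, and 3 without DILP2 replicate A. With DILP5 it was 3 without vehicle replicate A, vehicle replicate C or DILP5 replicate B, and 4 without vehicle replicate B or DILP5 replicate C.

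Fewer genes passed in each of the other lists. Over all tested genes, 5.33% were higher and 5.59% lower with DILP2, and 6.28% were higher and 6.78% lower with DILP5. Some of the counts below are near these shares. Of 18 genes tested on the list of secreted growth factors and cytokines, the gene that rose with each DILP was bnl, a member picked for its rise. That list also holds ImpL3, which encodes lactate dehydrogenase and is not a secreted factor. ImpL3 did not pass with either DILP. Another FGF ligand, pyr, fell by 0.66 ± 0.082 with DILP2 and by 0.69 ± 0.082 with DILP5 (adjusted p = 0.000515 and 0.000332). Of 11 genes of one-carbon metabolism, a list that does not hold the member CG7560, Nmdmc, a folate cycle enzyme of mitochondria, rose by 0.48 ± 0.068 and by 0.42 ± 0.067 (adjusted p = 0.00121 and 0.00208), 2 genes rose with DILP2 and 3 with DILP5, and 1 fell, with DILP5. Among 18 genes of the ERK response, sty, a feedback inhibitor of receptor tyrosine kinases, rose by 0.32 ± 0.059 and by 0.28 ± 0.059 (adjusted p = 0.00592 and 0.00984), and 1 gene fell. Of 23 immediate early and stress factors, 3 fell with DILP2 and 4 with DILP5. The clock repressor vri fell by 1.35 ± 0.088 with DILP2 and by 1.36 ± 0.087 with DILP5 (adjusted p = 5.33e-06 and 3.07e-06). The zinc finger factor cbt fell by 0.75 ± 0.051 and by 0.82 ± 0.051 (adjusted p = 5.93e-06 and 3.01e-06). At most 1 gene rose and 2 fell with either DILP among 14 transporters and among 17 lipid synthesis genes. Of 8 housekeeping genes, 0 passed in edgeR's test. At an unadjusted p under 0.05 in that test, 2 were higher with DILP2 and 5 with DILP5, and 0 were lower with either. The share of genes outside the list at this threshold was not taken, so these counts have no background. DESeq2 called 2 of the 8 higher with DILP2 and 5 with DILP5. Its calls against vehicle for the full set of genes, in either direction, numbered 1108 for DILP2 and 1289 for DILP5.

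The cell type was checked on marker lists. Of 14 hemocyte genes, the factor srp, ush, crq (338 to 414 CPM) and the collagen genes Cg25C and vkg were well detected. Pxn was at 29.5 to 44.5 CPM. Hml, eater and NimC1, which mark mature plasmatocytes, were at 5.71 CPM or less in every library. Sr-CI, He, gcm, lz and PPO2 were at 0.846 CPM or less in every library. The 14 genes summed to 2051 to 2177 CPM with DILP2, 2034 to 2150 CPM with DILP5 and 2193 to 2305 CPM with vehicle. Of 9 tested, 2 were lower with each DILP, where 5.59% of all tested genes were lower with DILP2 and 6.78% with DILP5. The part of cell type in the ratios above was not tested. Muscle, fat body and germ line lists summed to at most 6.42 CPM in any library. The 3 ovarian somatic genes summed to between 32.2 and 37.2 CPM, most of it from fs(1)Yb. The 5 neuron genes summed to between 180 and 218 CPM, most of it from elav and brp.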

How the data were processed

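RNA from S2 cells was sequenced as single-end reads. The authors mapped them with Tophat and Bowtie to dm3, counted reads per gene with easyRNASeq and deposited raw counts without normalization, replicates apart. Versions, annotation release, strand and the handling of overlapping genes are not given in the sources used here. CPM is the count divided by the library's total over genes.

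The members and gene lists were chosen with earlier results of these data known, so no p over the members or a list is given. All 20 members are named, with levels. In addition, genes nearest to the fold limit are named, as are some of the list genes with calls, chosen after their values were seen.

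Counts were tested with edgeR 4.0.16 (TMM, default filter on low counts, 8981 genes, quasi-likelihood test, Benjamini-Hochberg adjustment over all genes, threshold 0.05) in R 4.3.3 with limma 3.58.1, using all 9 libraries and no replicate block. Each SE was taken from the size of the log2 fold change and the square root of its F. Alternatives were DESeq2 1.42.0, other normalizations and filters, the 6 libraries of a comparison, the replicate block and each library left out. For list genes they were chosen after seeing the data. The BDGP6 annotation gave exon lengths and shared exons (13389 of 13937 identifiers found), which is not the build of the counts, so no coordinates are given. Promoter motifs were not searched. Figures were drawn with matplotlib 3.10.9.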

Additional observations from a re-analysis of the deposited data

How the results depend on the processing

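The selection found 61 genes with a fold of 1.3 and 11 with 1.5, 29 with TMM-scaled CPM, and 18 to 35 when each library was left out, the highest without vehicle replicate A. Genes called over vehicle numbered 981 with DILP2 and 1173 with DILP5. With the replicate block they were 1781 and 2068. Leaving out a library gave 487 (without vehicle replicate C) to 1007 for DILP2, with 508, 523 and 651 without vehicle replicate A, DILP2 replicate A and DILP2 replicate B. It gave 622 (without vehicle replicate A) to 1270 for DILP5, with 624, 629 and 759 without vehicle replicate C, DILP5 replicate B and DILP5 replicate A. Scaling by library size alone turned the split to 307 higher and 778 lower for DILP2 (479 and 502 with TMM), and to 366 and 852 for DILP5 (564 and 609). Medians over the members moved by less than the spread between libraries in all 16 alternatives. DILP5 against DILP2 gave 0 called genes in every alternative, and adjusted p from 0.868 to 1 for the 5 members with the smallest p. In edgeR's fit with the replicate block, CG7530 was the 1 member with an unadjusted p under 0.05 for DILP5 against DILP2 (0.0191), and 0 genes were called. The share of all genes at that threshold was not taken for this fit. In their deviations, same-letter libraries correlated at 0.142 to 0.163 for A and 0.286 to 0.348 for C but -0.035 to 0.0967 for B, and others at -0.291 to 0.189. Not every pair being over 0.1, the letters were not taken as pairs, and not every library correlated best with its own letter. Genes on the Myc and ribosome production list that rose, with the member nop5 counted, numbered 8 to 11 with DILP2 and 9 to 11 with DILP5. Insulin and TOR genes that fell numbered 2 to 9 with DILP2 and 3 to 8 with DILP5, and InR and Pk61C fell in all 16 alternatives with each DILP. In the other lists at most 5 genes rose and 6 fell under any alternative. The cause of these shifts was not tested. CG15766, CG7560 and RpI12 have the fewest reads of the members, and the part of depth in their intervals was not tested.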
